A study of Homo sapiens with 6 samples.

Results

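The mitosis genes described here are 31 genes whose products act in the G2 phase and in cell division. They were chosen by name, and all 31 were found among the 23368 genes of the count table and had enough reads for a test. They were measured by RNA sequencing of total RNA from 1205Lu cells, an established human line from a metastatic melanoma. Flasks received either pCMV6-SOX10, a plasmid for expression of the transcription factor SOX10, or the empty pCMV6 plasmid, in 3 biological replicates each, with 7.8 µg of DNA per flask and lysis 24 h later. Both groups were thus transfected, and the labels list no untransfected cells. Transfection was transient, so a library averages cells that took up the plasmid and cells that did not, and the labels do not give the share that did.

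Cells enter mitosis when cyclin B and its kinase CDK1 become active. The chromosomes are then condensed and attached to spindle microtubules at their kinetochores, and a checkpoint holds the cell until every kinetochore is attached. The anaphase-promoting complex then marks securin and cyclin B for destruction, the sister chromatids separate, and a contractile ring divides the cell. Transcripts of these genes are scarce in resting and G1 cells and accumulate late in the cycle, so their sum is widely used as a sign of proliferation. In bulk RNA, fewer dividing cells and less RNA per dividing cell cannot be told apart.

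The late activation of these genes is known to run through promoter elements called CHR, with the letters TTTGAA, and CCAAT boxes. The CHR is bound by the MuvB complex, as part of DREAM in resting cells and with B-MYB and FOXM1 in dividing cells, and the CCAAT box by NF-Y. RefSeq promoter windows (GRCh38.p14, 250 bases before to 50 after the start) were at hand for 26 of the 31 genes, in 29 windows because 3 genes have more than 1 start. AURKA, BIRC5, TPX2, TTK and UBE2C were not matched. On either strand, TTTGAA occurred in 21 of the 29 windows (72.4%), against 15.2% of all 35116 windows and 10.6% of the 11694 windows of genes tested here. CCAAT occurred in 22 (75.9%), against 34.6% of all windows, and 16 windows (55.2%) held both, against 5.90%. A stricter form, in which GCGG and any 4 bases stand directly before TTTGAA and which thus contains the first motif, occurred in 4 windows, those of CDK1, CENPF, DLGAP5 and NUF2, against 0.105% of all windows. Among windows of other mitosis genes, TTTGAA occurred in 43 of 95 (45.3%), CCAAT in 55 (57.9%), both in 30 (31.6%) and the stricter form in 5 (5.26%). Among windows of 44 genes of the G1 and S phases, TTTGAA occurred in 2 of 49 (4.08%) and CCAAT in 27 (55.1%). By gene, 19 of the 26 had TTTGAA, 20 had CCAAT and 15 had both in the same window. The letters were not used to choose the genes. These elements are known for genes of this class, however, so the choice is not independent of them. The matches are letters in a window and no binding was measured.

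The stretches below show the 110 bases up to the start, 5′ to 3′ on the strand of the gene, with both motifs, on either strand, in capitals. The first 7 carry both elements a short way before the start, and the last 2 carry neither. They lie at chr16:23678779-23678888 on the plus strand (PLK1), chr15:59105036-59105145, plus (CCNB2), chr15:69414239-69414348, plus (KIF23), chr15:90994536-90994645, minus (PRC1), chrX:70289994-70290103, plus (KIF4A), chr1:43358871-43358980, plus (CDC20), chr10:128126424-128126533, minus (MKI67), chr4:103198344-103198453, minus (CENPE), and chr1:44739727-44739836, plus (KIF2C).
PLK1: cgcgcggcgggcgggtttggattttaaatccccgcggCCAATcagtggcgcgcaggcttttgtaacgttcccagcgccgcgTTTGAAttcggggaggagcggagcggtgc
CCNB2: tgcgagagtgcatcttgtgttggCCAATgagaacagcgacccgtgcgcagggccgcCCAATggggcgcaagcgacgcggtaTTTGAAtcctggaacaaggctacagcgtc
KIF23: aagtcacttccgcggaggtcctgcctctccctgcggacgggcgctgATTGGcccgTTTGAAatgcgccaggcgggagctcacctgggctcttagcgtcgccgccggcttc
PRC1: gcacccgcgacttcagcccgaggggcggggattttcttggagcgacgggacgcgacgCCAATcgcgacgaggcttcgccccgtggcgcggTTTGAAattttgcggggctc
KIF4A: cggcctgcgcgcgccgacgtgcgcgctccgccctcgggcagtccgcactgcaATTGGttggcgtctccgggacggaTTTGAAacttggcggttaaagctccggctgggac
CDC20: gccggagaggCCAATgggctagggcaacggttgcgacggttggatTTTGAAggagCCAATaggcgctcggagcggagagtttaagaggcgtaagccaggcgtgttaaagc
MKI67: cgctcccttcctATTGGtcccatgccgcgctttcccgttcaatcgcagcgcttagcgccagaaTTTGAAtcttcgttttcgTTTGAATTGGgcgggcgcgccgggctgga
CENPE: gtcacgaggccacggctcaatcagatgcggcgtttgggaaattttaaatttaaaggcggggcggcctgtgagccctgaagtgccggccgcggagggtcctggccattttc
KIF2C: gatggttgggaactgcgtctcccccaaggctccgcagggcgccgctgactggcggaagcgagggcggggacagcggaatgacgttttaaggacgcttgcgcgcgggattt

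In PLK1 and CCNB2 the TTTGAA begins 29 bases before the start, and in PRC1 20 bases before it. In MKI67 there are 2 copies, and the one nearer the start overlaps a CCAAT box on the other strand.

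The libraries were shallow and unequal. Reads assigned to genes numbered 2544420 to 4167393 in the SOX10 libraries and 867917 to 2066520 in the controls, so 1 read was worth 0.24 to 1.14 CPM, the unit of a count scaled to its library total, here with TMM factors. SOX10 itself had 81, 47 and 143 reads against 15, 18 and 44 in control libraries. Its fitted log2 difference was 0.35 (SE 0.27, adjusted p 0.927 by edgeR's quasi-likelihood test), so its reads do not check the labels. PMP2, the gene the series is about, was higher by 3.99 on the log2 scale (SE 0.49, adjusted p 0.000103 by edgeR). Of 8 melanoma and pigment cell markers S100B and ERBB3 were abundant, with 4339 and 6359 reads over all libraries, and MITF had 75, while MIA, PMEL, MLANA, TYR and DCT had 4 to 19. Of 14 markers of keratinocytes, leukocytes, fibroblasts and endothelium 12 had too few reads for a test, CD3E and LUM had 0 reads, and those tested were VWF with 57 reads and PDGFRA with 1817. SOX10 replicate 1 and control replicate 3 stood apart by the reads that fell outside genes, at 93.5 and 97.0 per 100 assigned reads against 121 to 135 in the other 4 libraries.

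None of the 31 mitosis genes passed the test between the groups. By edgeR's quasi-likelihood test over 10678 genes, with adjustment by Benjamini and Hochberg and a threshold of 0.05, 0 were higher and 0 lower, against a background of 0.112% of all tested genes called (0.00937% higher and 0.103% lower). At an unadjusted p under 0.05 the count was also 0 of 31, against 6.23% of all tested genes (2.71% higher and 3.52% lower), and DESeq2 and limma-voom likewise called 0 and found 0 at that p. Log2 fold changes ran from -0.26 (NUF2) to 0.36 (PLK1), 18 were above 0, against 51.3% of all tested genes, and 13 below, and their median was 0.047, beside 0.0076 over all tested genes. The smallest unadjusted p was 0.137, for BIRC5, and the edgeR adjusted p was between 0.906 and 0.998 for every one of them.

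The data limit how large a change could have been in the average over cells with and without the plasmid. A change within the cells that took it up is not bounded in this way, as their share is not known. The 95% confidence intervals of all 31 genes lay within a 2-fold change in either direction, which held for 76.4% of all tested genes and for 95.2% of the 7655 tested genes within the range of reads that the 31 cover. For 22 of the 31 the interval lay within 1.5-fold, as it did for 4634 of all 10678 tested genes and 4599 of those 7655. The widest upper end was 1.88-fold, for AURKB, and the widest lower end was 1.56-fold lower, for NUF2. Changes inside these intervals cannot be told from no change with these libraries. On counts simulated for this comparison with 10507 genes, edgeR called 73 of 100 genes given a 2-fold change and 100 of 100 given a 4-fold change. It also called 5 genes given no change. Every simulated gene had the same biological coefficient of variation, 12.66%, while those fitted to the 31 ran from 9.38% to 18.0%. The split between libraries of the same group that is described below was not simulated.

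**Figure D1:**
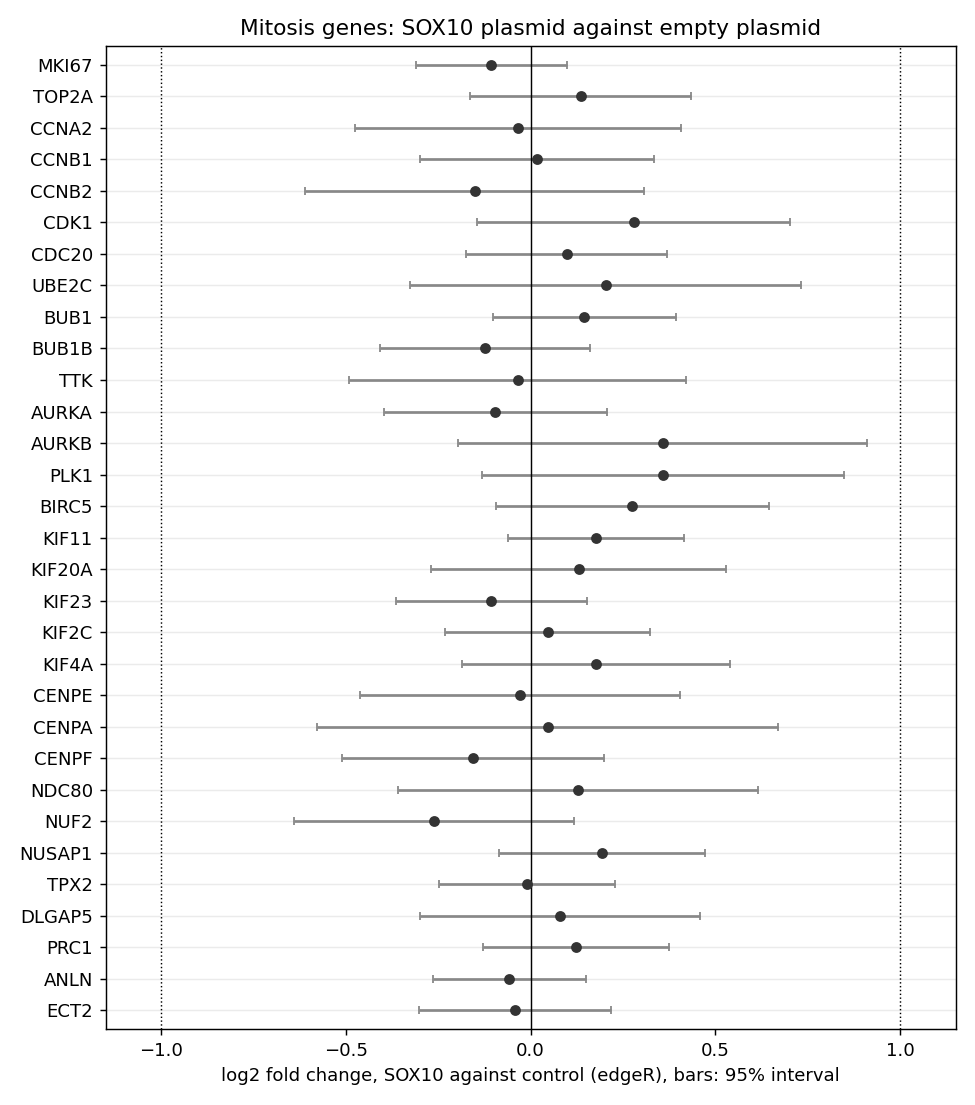
Log2 fold change of each of the 31 mitosis genes, SOX10 against control libraries (horizontal axis), with 95% confidence intervals from the edgeR fit, 3 libraries per group. Every interval includes 0 and lies inside the dotted lines at a 2-fold change, from NUF2 at -0.26 to PLK1 at 0.36.

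MKI67, whose protein Ki-67 coats mitotic chromosomes and is the usual histological marker of dividing cells, had the most reads of the 31. It stood at 1629, 1911 and 1907 CPM in SOX10 replicates 1, 2 and 3 and at 2168, 2026 and 1678 CPM in control replicates 1, 2 and 3. The groups overlapped, and the lowest library of each was the one with few reads outside genes. The log2 fold change was -0.11 (SE 0.10), with a 95% interval from -0.31 to 0.098 and an adjusted p of 0.932 by edgeR. TOP2A, the topoisomerase that untangles sister chromatids, stood at 215, 292 and 331 CPM against 254, 305 and 212 CPM. Its libraries overlapped in the same way, with a log2 fold change of 0.14 (SE 0.14).

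The cyclins and their kinase did not separate the groups. CCNB1, the cyclin that drives entry into mitosis, stood at 66.9, 80.2 and 86.6 CPM in the 3 SOX10 libraries and 75.6, 89.1 and 69.6 CPM in the controls. Its group means were 77.9 ± 10.1 and 78.1 ± 10.02 CPM (SD, n = 3 each), and the log2 fold change was 0.017 (SE 0.15). CDK1 stood at 35.02, 37.1 and 42.5 CPM against 38.3, 26.3 and 30.4 CPM. It overlapped through control replicate 1, which lay above SOX10 replicates 1 and 2, and had a log2 fold change of 0.28 (SE 0.20, adjusted p 0.919 by edgeR). CCNA2, the cyclin of S and G2 phase, had -0.035 (SE 0.21) and CCNB2, the second B-type cyclin, -0.15 (SE 0.22).

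CDC20, the activator of the anaphase-promoting complex that the checkpoint holds back, stood at 104, 108 and 117 CPM against 95.3, 118 and 97.6 CPM. UBE2C, the ubiquitin-conjugating enzyme of that complex, stood at 27.6, 22.1 and 24.2 CPM against 31.8, 19.4 and 16.4 CPM. The highest and the lowest level of UBE2C were thus both in control libraries. Their log2 fold changes were 0.097 (SE 0.13) and 0.20 (SE 0.26), and that of UBE2C ran from -0.050 to 0.50 when single libraries were left out.

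Of the checkpoint kinases, BUB1, which acts at unattached kinetochores, had the most reads. It stood at 252, 297 and 316 CPM in the SOX10 libraries and 253, 304 and 231 CPM in the controls, and the groups overlapped. The log2 fold change was 0.15 (SE 0.12, adjusted p 0.929 by edgeR). BUB1B, which encodes the checkpoint inhibitor BUBR1, had -0.12 (SE 0.14), and TTK, the kinase MPS1 that starts checkpoint signalling, -0.035 (SE 0.22).

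The mitotic kinases and survivin held the 2 largest positive values, those of PLK1 and AURKB. BIRC5, or survivin, a subunit of the chromosomal passenger complex, stood at 63.7, 64.8 and 75.6 CPM against 42.7, 76.6 and 52.2 CPM. Control replicate 2 was above every SOX10 library, while the other controls were below them all, and the log2 fold change was 0.28 (SE 0.18, adjusted p 0.906 by edgeR). PLK1, a kinase of mitotic entry and spindle assembly, stood at 23.6, 41.1 and 34.6 CPM against 27.4, 25.1 and 24.6 CPM. SOX10 replicate 1 lay below all controls and the other SOX10 libraries above them, and the log2 fold change was 0.36 (SE 0.24, adjusted p 0.913 by edgeR).

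AURKB, the kinase of the passenger complex, was counted 73, 47 and 107 times against 20, 11 and 33 times, and its log2 fold change was 0.36 (SE 0.27). AURKA, the spindle pole kinase, had more reads and a value of the other sign, -0.095 (SE 0.15), at 103, 132 and 144 CPM against 123, 166 and 121 CPM. Its highest level was in control replicate 2 and its lowest in SOX10 replicate 1.

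Among the motor proteins, KIF11, or Eg5, which pushes the spindle poles apart, had the most reads and the smallest p. It stood at 271, 293 and 253 CPM in the SOX10 libraries and 280, 221 and 225 CPM in the controls. Its log2 fold change was 0.18 (SE 0.11, adjusted p 0.910 by edgeR). Control replicate 1 lay inside the SOX10 range, and the other controls below it. KIF23 and KIF20A, motors of the spindle midzone, had -0.11 (SE 0.12) and 0.13 (SE 0.19). KIF2C, which takes microtubules apart at kinetochores, had 0.046 (SE 0.13), and the chromosome-arm motor KIF4A 0.18 (SE 0.18). KIF4B, a near copy of KIF4A, had only 8 reads over all libraries, and reads that align to both would not have been counted if they were classed as not unique.

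CENPE, the kinetochore motor that aligns chromosomes, had nearly as many reads as KIF11 and the widest spread of the 31, with a biological coefficient of variation of 18.0% against a median of 11.7% over the 31. It stood at 151, 306 and 341 CPM in the SOX10 libraries and 296, 338 and 194 CPM in the controls. SOX10 replicate 1 and control replicate 3 were far below the other 4, and the log2 fold change between groups was -0.029 (SE 0.21).

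CENPF, a large protein of the outer kinetochore and nuclear matrix, was likewise lowest in SOX10 replicate 1 and next in control replicate 3, at 315, 574 and 580 CPM against 608, 627 and 412 CPM, with a log2 fold change of -0.16 (SE 0.17). NUF2, a subunit of the NDC80 complex that binds microtubules, was the only one of the 31 whose groups did not overlap, at 35.3, 36.8 and 38.6 CPM against 47.1, 46.9 and 40.6 CPM. Groups that do not overlap were found for 11.8% of all tested genes, 5.72% with SOX10 higher and 6.03% with SOX10 lower, so 1 of 31 is below that share. For NUF2 the log2 fold change was -0.26 (SE 0.18, edgeR adjusted p 0.915). Its partner NDC80 had 0.13 (SE 0.24) and the centromeric histone CENPA, with the fewest reads (199 over all libraries), 0.047 (SE 0.30).

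TPX2, which activates AURKA and nucleates spindle microtubules, stood at 185, 197 and 195 CPM against 215, 199.99 and 171 CPM. NUSAP1, a microtubule bundler of the spindle, stood at 115, 124 and 106 CPM against 104, 114 and 88.4 CPM. The groups overlapped for both genes, and the log2 fold changes were -0.0091 (SE 0.12) and 0.19 (SE 0.13, adjusted p 0.915 by edgeR). The spindle protein DLGAP5 had 0.080 (SE 0.18) and PRC1, which cross-links the midzone, 0.12 (SE 0.12). In GENCODE release 29, 62.2% of the exonic bases of NUSAP1 and 57.6% of those of PRC1 are shared with another gene model on the same strand, as are 10.2% for BUB1B and 6.96% for CENPA. Opposite-strand genes share 12.5% for PLK1, 9.08% for CCNA2, 7.35% for PRC1 and 0.149% to 5.05% for KIF20A, KIF2C, KIF23, KIF4A, ANLN and NUF2. PRC1-AS1, an opposite-strand partner of PRC1, has no row in the count table. No source used here states the annotation of the counts or whether reads were counted by strand. Whether this sharing touched the values of these genes is thus not known.

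ANLN, or anillin, the scaffold of the contractile ring, stood at 1392, 1757 and 1631 CPM in the SOX10 libraries and 1833, 1674 and 1473 CPM in the controls. The groups overlapped, and the log2 fold change was -0.057 (SE 0.10, edgeR adjusted p 0.961). ECT2, which activates RhoA at the division plane, had -0.042 (SE 0.13) and the smallest biological coefficient of variation of the 31, at 9.38%.

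**Figure D2:**
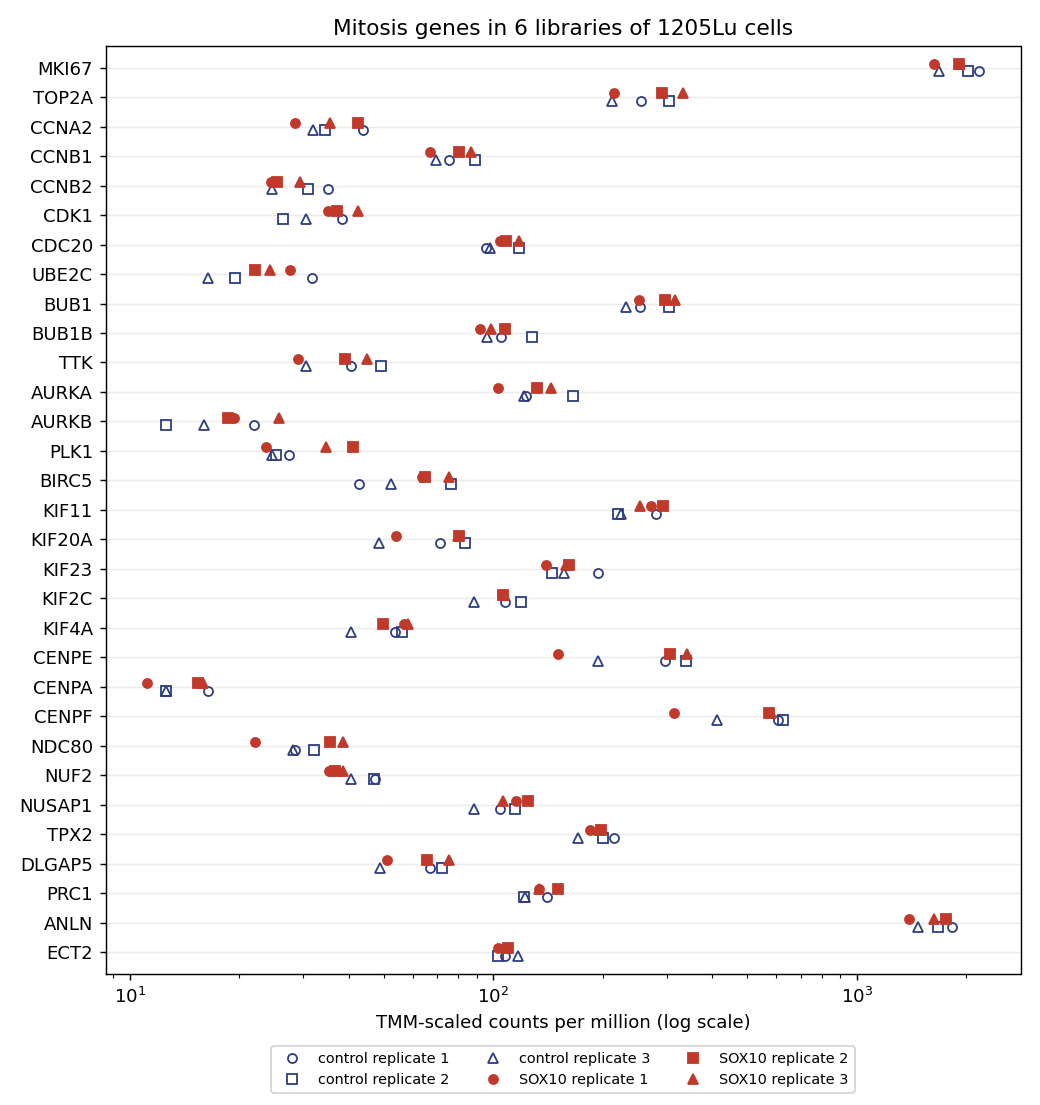
TMM-scaled CPM on a log scale (horizontal axis) for each of the 31 mitosis genes in every library, filled for SOX10 and open for control, with the replicate number as the symbol. The groups overlap for every gene except NUF2, and SOX10 replicate 1 and control replicate 3 are the lowest points for CENPE and CENPF.

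Per length, ANLN was the most abundant of the 31. Dividing each mean CPM by the length of the longest coding transcript in GENCODE release 29 gave 340 CPM per kb for ANLN, with 291 to 383 over the 6 libraries, and 149 for MKI67, with 128 to 171. These 2 genes stood apart from each other and from BUB1, the next, at 77.1 (64.7 to 88.3). Of the 30 neighbouring pairs in the order of levels per kb, the ranges over libraries overlapped in the other 28, from BUB1 down to CENPA at 9.64 CPM per kb. The median gene was BUB1B at 28.1, and the highest level was 35.3 times the lowest. CDC20 and AURKA came next at 60.1 and 58.5, while the cyclin CCNB2 and the kinase TTK stood near the lower end at 11.3 and 10.4. Levels per kb depend on the transcript chosen, and they compare genes within these libraries only.

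As a sum, the 31 genes took 0.591%, 0.724% and 0.723% of assigned reads in SOX10 replicates 1, 2 and 3 and 0.742%, 0.744% and 0.601% in control replicates 1, 2 and 3. The group means were 0.679% ± 0.077 and 0.695% ± 0.082 (SD, n = 3 each), so the groups differed by less than the spread within either of them. The libraries fell at 2 levels that cut across the groups, with SOX10 replicate 1 and control replicate 3 low and the other 4 high. Exact binomial 95% intervals, which cover counting error only, were 0.583% to 0.599% for SOX10 replicate 1 and 0.590% to 0.611% for control replicate 3, below the lowest bound of the other 4 at 0.714%. MKI67 supplied 26.2% to 28.8% of the summed reads and ANLN 22.6% to 24.6%. Without these 2 genes the shares were 0.286% and 0.285% in the low libraries and 0.347% to 0.371% in the others, so the split did not rest on them.

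**Figure D3:**
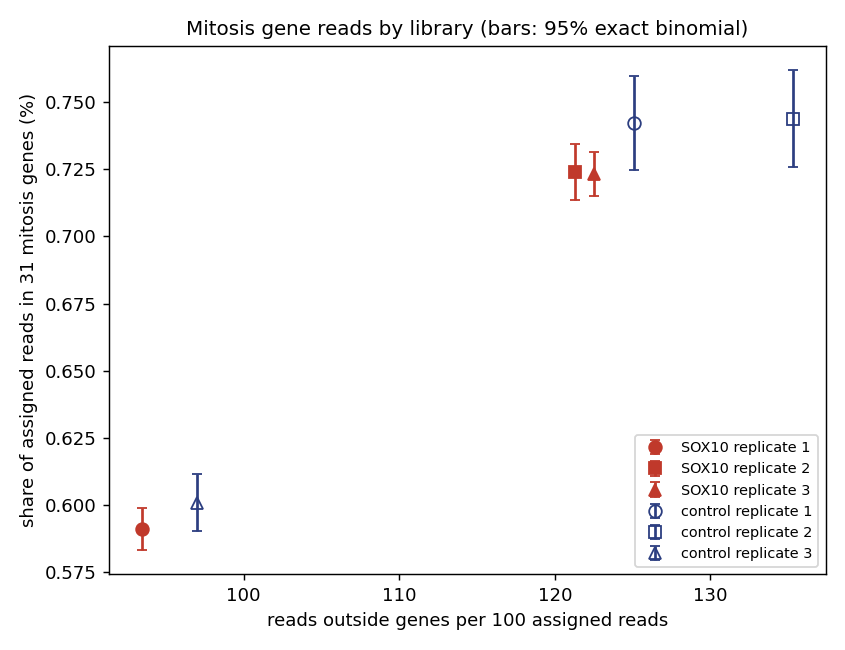
Share of assigned reads in the 31 mitosis genes (vertical axis, percent, with exact binomial 95% intervals; the axis does not start at 0) against reads outside genes per 100 assigned reads (horizontal axis) for the 6 libraries. SOX10 replicate 1 at 0.591% and control replicate 3 at 0.601% lie at the lower left, and the other 4 libraries lie between 0.723% and 0.744%.

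Gene by gene, SOX10 replicate 1 and control replicate 3 held the 2 lowest levels of all 6 libraries for 19 of the 31 genes, which was the case for 8.69% of all tested genes. Within each group, 27 of the 31 were lower in the library with few reads outside genes than in the mean of the other 2, in the SOX10 and in the control group alike, against 27.8% of all tested genes. None of the 31 was higher in both, against 3213 of all 10678 tested genes. UBE2C, KIF4A, NUSAP1 and ECT2 differed in sign between the groups. CENPE was lowest by this measure, at 0.467 times the level of the other SOX10 libraries and 0.613 times that of the other controls. CENPF followed at 0.546 and 0.666 times, KIF20A at 0.675 and 0.629 times, TTK at 0.694 and 0.685 times, DLGAP5 at 0.725 and 0.705 times and TOP2A at 0.691 and 0.762 times. Of 88 other tested mitosis genes 48 were lower in both (54.5%), but of 43 genes of the G1 and S phases only 6 (14.0%).

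**Figure D4:**
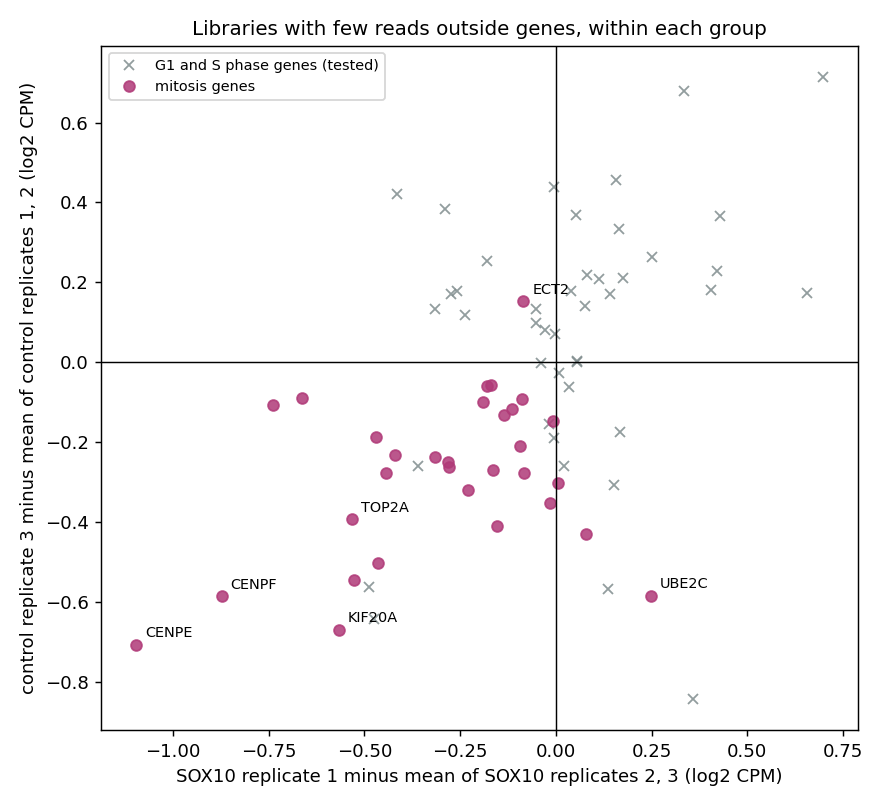
Difference in log2 CPM (offset 0.5) between the library with few reads outside genes and the mean of the other 2, for SOX10 (horizontal axis) and control libraries (vertical axis), for 31 mitosis genes (circles) and 43 tested genes of the G1 and S phases (crosses). The mitosis genes gather at the lower left, with 27 of 31 below 0 on both axes and CENPE farthest out, while 6 of the 43 others lie there.

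The relation was then tested with edgeR, in a model with the group and the log2 of reads outside genes per assigned read. This test was chosen after the data were seen. The same counts had already shown the low levels in SOX10 replicate 1 and control replicate 3. The p values thus restate that split and give it no separate support. With adjustment over all 10678 genes, 4 of the 31 rose with more reads outside genes and 0 fell, against 0.412% and 0.665% of all tested genes. They were CENPE, with a log2 slope per doubling of 2.25 (SE 0.27, adjusted p 5.06e-06 by edgeR), CENPF with 1.77 (SE 0.23, adjusted p 2.09e-05), TOP2A with 1.20 (SE 0.25, adjusted p 0.00519) and KIF20A with 1.54 (SE 0.36, adjusted p 0.0205). The libraries span less than such a doubling. Of the 31, 30 had a positive slope, against 5388 of all 10678 tested genes. At an unadjusted p under 0.05 by edgeR, 12 of the 31 rose, against 628 of all tested genes. Of 88 other mitosis genes 6 rose, namely ASPM, SGOL2, CKAP2, KIF20B, CASC5 and SPAG5, with slopes from 1.28 (CKAP2) to 1.89 (SGOL2). Of 43 genes of the G1 and S phases 1 rose, the kinase CDK6, with 1.29 (SE 0.25, adjusted p 0.00326 by edgeR). These genes are named after their values were seen.

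These calls rested on few libraries. Without SOX10 replicate 1 none of the 31 passed, with an adjusted p by edgeR of 0.0533 for CENPE and 0.109 for CENPF. In fits that lacked SOX10 replicate 3 or either of control replicates 2 and 3, only CENPE and CENPF passed. Across the 31 genes, the rank correlation of the mean difference with transcript length was -0.19 and with GC content 0.16, and across all tested genes of known transcript -0.19 and 0.23. These genes share their libraries and are no independent replicates. Whether the state of the cells or the making of the libraries moved with the reads outside genes was not tested.

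The comparison between the plasmids was repeated with these libraries set aside. Without SOX10 replicate 1 and control replicate 3 together, 0 of 31 genes passed and the median log2 fold change was 0.029. Leaving out SOX10 replicate 3 gave a median of -0.044 and leaving out control replicate 3 -0.077, against 0.14 without SOX10 replicate 1 and 0.13 without control replicate 2. The fit that lacked SOX10 replicate 2 gave 0.040, and the one that lacked control replicate 1 gave 0.098. With all libraries and the reads outside genes as a covariate, 0 of 31 passed and the median was 0.083. BUB1 and TOP2A were then higher at an unadjusted p under 0.05 by edgeR, and calls over all genes went from 12 to 43.

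No other mitosis gene passed between the plasmids either. Of 89 such genes, from condensin, the checkpoint, the kinetochore and the spindle, 88 were tested, edgeR called 0 in either direction, an unadjusted p under 0.05 was found for 4, against 6.23% of all tested genes, and the median log2 fold change was 0.010. WEE1, the kinase that holds CDK1 inactive, had the smallest p. It stood at 29.1 ± 4.76 against 14.7 ± 4.75 CPM (SD, n = 3 each), on 90, 84 and 126 against 18, 9 and 29 reads, and its groups did not overlap. The log2 fold change was 0.99 (SE 0.26, edgeR adjusted p 0.248), and over the alternatives the adjusted p lay between 0.0704 and 0.699.

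UBE2S, which extends ubiquitin chains on substrates of the anaphase-promoting complex, had 0.48 (SE 0.15, adjusted p 0.448 by edgeR). CDC25B, a phosphatase that activates CDK1, had -0.39 (SE 0.15, adjusted p 0.593), and PLK4, the kinase of centriole duplication, -0.39 (SE 0.24). The remaining gene at an unadjusted p under 0.05, named after its values were seen, was TMPO of the nuclear envelope, with 0.21 (SE 0.099, adjusted p 0.797 by edgeR).

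Of 43 tested genes of the G1 and S phases edgeR called 0, and also 0 at an unadjusted p under 0.05, with a median log2 fold change of 0.052. Those named are the helicase subunit MCM4 with 0.16 (SE 0.090), cyclin D1 (CCND1) with -0.17 (SE 0.090) and cyclin E1 (CCNE1) with -0.76 (SE 0.43).

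Of 35 regulators of mitosis genes, among them MuvB, E2F and NF-Y subunits and CDK inhibitors, 30 were tested and 0 passed by edgeR, with a median of 0.024. The 3 at an unadjusted p under 0.05, against 6.23% of all tested genes, had negative values. They were GADD45A, a DNA damage gene, with -0.48 (SE 0.17, adjusted p 0.526 by edgeR), CDKN1B, the CDK inhibitor p27, with -0.64 (SE 0.25, adjusted p 0.682 by edgeR), and MDM2, a ubiquitin ligase, with -0.29 (SE 0.13). RBL2, the pocket protein p130 of DREAM, had 0.45 (SE 0.22) and the MuvB subunit LIN52 0.87 (SE 0.43). Named after their values were seen, FOXM1 had 0.21 (SE 0.13), MYBL2, which encodes B-MYB, 0.0059 (SE 0.15), and CDKN1A, the CDK inhibitor p21, -0.042 (SE 0.25).

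**Figure D5:**
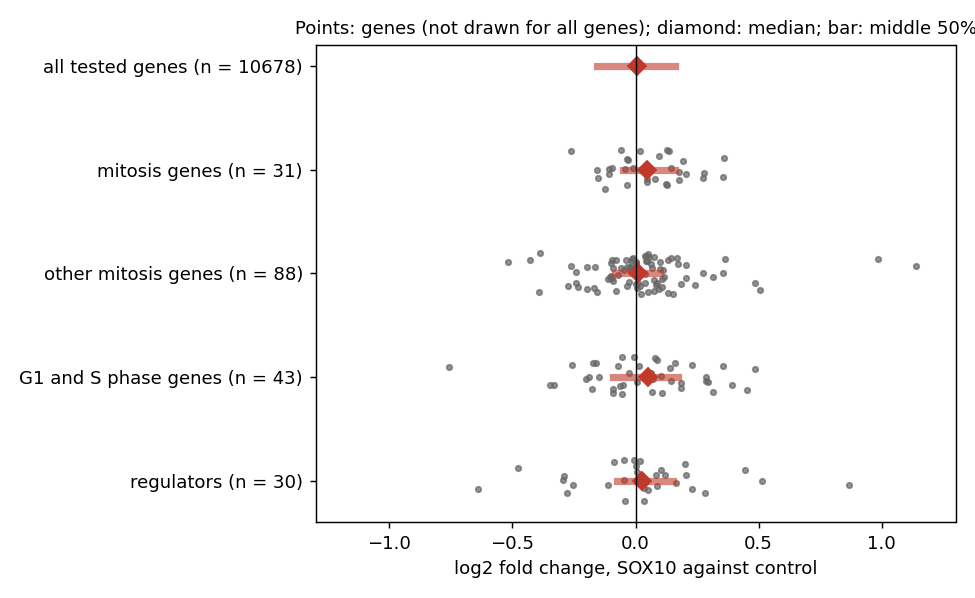
Log2 fold changes, SOX10 against control (horizontal axis). Points are the 31 mitosis genes, 88 other mitosis genes, 43 genes of the G1 and S phases and 30 regulators. A diamond is the median and a bar the middle 50%. Above them stand the median and bar of all 10678 tested genes, without points. All 5 medians lie between 0.0076 and 0.052.

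Of the 26 genes with a promoter window, the 19 with TTTGAA had a median log2 fold change of 0.080 and the 7 without it 0.046. The 20 with CCAAT had a median of 0.11 and the 6 without it -0.043. These are descriptions, and the differences were not tested. CENPE and CENPF, the lowest of the 31 in the libraries with few reads outside genes, differed in their windows, as CENPF has a TTTGAA and CENPE neither TTTGAA nor CCAAT.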

How the data were processed

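The authors deposited raw counts of reads by gene symbol, 1 column for each library. Tools named in the submitters' processing notes are TopHat 1.4.0, HTSeq and DESeq, and the build is hg19. For the annotation and the strand setting, nothing was given in the sources used here. Reads outside genes are the no-feature row, which with 4 further rows that name no gene was left out of library sizes. Per the labels' protocols, 125 ng of total RNA went into each NuGEN library.

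All 6 libraries entered edgeR 4.0.16 (R 4.3.3) with TMM factors, the filterByExpr filter at a count of 10 and a total of 15, the quasi-likelihood test and Benjamini-Hochberg adjustment over 10678 genes. Log2 fold changes use a prior count of 0.125. The test was checked on simulated data. Alternatives included DESeq2 1.42.0 and limma 3.58.1 (voom). Same-numbered replicates did not deviate together (correlations -0.027, -0.032 and -0.13), so numbers were not used as pairs. The replicates are biological, per the series' design.

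Every gene of the 31 is named. Per role, the gene with the most reads and that with the smallest p are given library by library, and in other lists up to 2 genes per direction, of which some are not reported here. TOP2A, PLK1, AURKB, CENPE and MDM2 were added after their values were seen. The 31 genes and the lists were chosen with earlier results of these data known. Promoter letters are RefSeq's (GRCh38.p14), and no coordinates of the hg19 counts are used.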

Additional observations from a re-analysis of the deposited data

How the results depend on the processing

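Across 17 alternatives, 0 of 527 log2 fold changes of the 31 genes passed an adjusted p of 0.05. The smallest adjusted p was 0.546, for PLK1 by edgeR without SOX10 replicate 1. Some members reached an unadjusted p under 0.05 by edgeR, all of them higher. They were BIRC5 after thinning, BUB1 and TOP2A with the covariate, and PLK1 and TOP2A without SOX10 replicate 1. KIF11 did so without control replicate 1, and BIRC5 and BUB1 without control replicate 2. The median over the 31 ran from -0.077 to 0.14, and 0.039 to 0.078 under other scalings, filters and tests. No fold change moved by more than 1.5 times. The sign changed in 46 of the 527, and 13 of the 31 genes kept 1 sign throughout. The lists of other mitosis genes, G1 and S phase genes and regulators had 0 calls in all 17. With the replicate number as a block the count was 0 and the median 0.048, while calls over all genes went from 12 to 7. Over all tested genes, no library correlated best with its own number. Over the 31, SOX10 replicate 2 correlated best with control replicate 2 (0.20), and control replicate 1 with SOX10 replicate 1 (0.13). The other libraries did not correlate best with their own number.

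The count of genes that rose with reads outside genes was 4, and 0 to 4 without single libraries, with 0 without SOX10 replicate 1. It was 2 when SOX10 replicate 3 or either of control replicates 2 and 3 was missing. By limma-voom it was 6, and after thinning to 867917 reads per library 3. These alternatives, like the test, were chosen after seeing the data.

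The depth of the controls limits the rarest genes, such as CENPA with 11 to 26 reads per control library.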
